A study of Mus musculus with 24 samples.

Results

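The 42 mouse genes described here encode proteins that carry a cell through mitosis. They were taken by symbol from a list of mitotic kinases and cyclins, spindle checkpoint and anaphase-promoting complex proteins, the chromosomal passenger complex, kinesins, centromere and kinetochore proteins, spindle-associated proteins, cytokinesis proteins and chromosome proteins. All 42 symbols were matched among the 54446 gene identifiers of the count tables. No measured value entered the rule, but the genes were chosen with earlier results of these data known. All 42 passed the filter on low counts in every comparison. The lowest count of any of them in an Input library was 55, for Ttk.

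The libraries were made from CD11b+ myeloid cells sorted from MC38 tumors, which grow from a mouse colon carcinoma line. The tumor-bearing C57BL/6J mice carried floxed Ythdf2 alleles in every group. Those called WT lacked Cre, and those called Ythdf2 cKO also carried Cre at the Lyz2 locus, which is active in many but not all myeloid cells. Tumors were left unirradiated (Ctrl) or were irradiated with 20 Gy in a single dose (IR), and cells were taken 3 days after irradiation. From each of the 4 combinations, 3 Input libraries of poly(A) RNA and 3 libraries of RNA precipitated with an antibody to N6-methyladenosine (m6A IP) were sequenced, which gave 24 libraries in 8 groups. The methods call the 3 replicates technical replicates of cells pooled from several mice and, where peaks are described, biological replicates. Whether each came from a pool of its own is not clear from them, so each p-value below measures the spread between these libraries, which may be technical.

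Mitotic genes are transcribed in waves late in the cell cycle. In resting cells their promoters are held silent by a repressor complex that binds a short element called the cell cycle genes homology region (CHR), and in dividing cells the B-MYB and FOXM1 complexes act on the same promoters. In tumor myeloid cells, transcripts of this kind come from the part of the population that is still cycling, such as progenitors, immature monocytes and dividing macrophages. m6A is a methyl mark on adenosines of mRNA, usually within GGAC or related sequences, and YTHDF2 is a cytoplasmic protein that binds the mark and speeds the decay of marked transcripts.

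The libraries held 65180075 to 86421888 counts on genes. Levels are given as CPM, a gene's counts scaled to a common library total with TMM factors. Ythdf2 counts did not mark the knockout. The level ran from 95.6 to 107 CPM in the 6 WT Inputs and from 174 to 231 CPM in the 6 cKO Inputs, and a count over the whole gene does not show whether the floxed part was read. Lyz2, whose locus carries Cre in the cKO mice, separated the genotypes. It stood at 20056 to 21462 CPM in the WT Inputs and at 296 to 414 CPM in the cKO Inputs. The unirradiated IP libraries matched their labels by this gene, at 16816 to 17685 CPM in WT and at 93.3 to 98.3 CPM in cKO. The irradiated IP libraries did not. Those labelled WT IR stood at 97.3 to 100.1 CPM and those labelled cKO IR at 20975 to 21220 CPM, each at the level of the other genotype. They are therefore called "labelled WT IR" and "labelled cKO IR" throughout, and the irradiation effect in IP libraries is given as the average over both genotypes, which does not depend on which of them is which. Input replicate 1 of WT IR also stood apart. The chi-square per degree of freedom was 42.4 and 20.0 against the other replicates of its group, and lay between 3.56 and 10.6 among all other pairs of Input replicates. The numbers of members called in WT IR against WT Ctrl, in cKO IR against WT IR, in the interaction and in the averaged change of IP over Input are given with and without it.

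Short stretches of the transcripts under m6A peaks are printed as examples. In WT Ctrl, GGACT was found within 50 bases of the summit in 24 of 341 member peaks (7.04%). The following windows each hold a GGACT, printed in capitals, near the summit of a peak that all 3 WT Ctrl IP libraries shared. They are shown because these members carry results below and their peaks held the m6A consensus letters. All are read 5′ to 3′ on the transcript strand from GRCm38.p6.
Cenpf: ctgcctgtggGGACTtgtcttgagc
Aurkb: gcggcacgctGGACTatctgccccc
Aspm: aagtacctgaGGACTttgaaggcta
Bub1b: tgaggatcatGGACTtctcctacag
Racgap1: aggacttcgaGGACTtccgaaagaa
Top2a: gagaggaacaGGACTtccctgtgga
Mki67: agatcaggcaGGACTtccagtggaa
The Cenpf window lies at chr1:189642530-189642554 on the minus strand, in the 3′ untranslated region of the last of 18 exons. The others lie in coding exons, at chr11:69050316-69050340 (plus strand, exon 7 of 8) for Aurkb, chr1:139479764-139479788 (plus strand, exon 18 of 28) for Aspm and chr2:118638445-118638469 (plus strand, exon 21 of 23) for Bub1b. Racgap1 was read at chr15:99639774-99639798 (minus strand, exon 4 of 18), Top2a at chr11:98993901-98993925 (minus strand, exon 35 of 36) and Mki67 at chr7:135704699-135704723 (minus strand, exon 8 of 14). Mean fold enrichment at the summit over the 3 WT Ctrl libraries ranged from 3.78 ± 0.25 (SD) at the Mki67 window to 11.8 ± 4.26 (SD) at the Cenpf window. A peak overlapped the site in all 4 groups for 6 of these windows and in 3 groups for Bub1b. The A of the GGACT in capitals lay from 8 bases (Aurkb) to 32 bases (Mki67) from the summit. The Racgap1 window also holds a GGACT in lower case. Which base was methylated was not measured.

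The promoters of the members shared short elements that the choice of genes did not use. Windows of 250 bases before to 50 bases after the annotated start were matched for 36 members (RefSeq, GRCm38.p6), and none was matched for Ccna2, Aurkb, Incenp, Kif20a, Spc24 and Tpx2. The CHR letters TTTGAA, sought on both strands, were found in 29 of the 36 windows (80.6%), against 20.2% of 27025 genes in the same table. With TTCGAA, the variant of the element that is the same on both strands, the count was 30 of 36 (83.3%) against 21.7% of genes. CCAAT, the box bound by NF-Y, was found in 28 of 36 (77.8%) against 41.1% of genes, and both kinds of element together in 26 of 36 (72.2%) against 8.61%. CCAAT can share a base with TTTGAA. Among 54 other mitotic genes listed separately, 46 were matched and 28 of those (60.9%) held either CHR form. The windows below show the element, in capitals, in members that are highest in their class or that carry a result below, with reference strand and position after each set.
Ccnb2: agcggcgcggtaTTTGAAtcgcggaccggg
Kif4: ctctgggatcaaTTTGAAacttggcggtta
Kif23: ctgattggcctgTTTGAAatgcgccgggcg
Cenpf: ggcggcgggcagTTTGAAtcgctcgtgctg
Spc25: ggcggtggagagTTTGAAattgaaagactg
Aspm: ggaggcgcgataTTTGAAccgagcaaaagc
Racgap1: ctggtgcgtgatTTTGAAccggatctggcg
Mki67: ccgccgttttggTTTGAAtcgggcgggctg
They were read at chr9:70421533-70421562 (minus) for Ccnb2, chrX:100626072-100626101 (plus) for Kif4, chr9:61946780-61946809 (minus) for Kif23, chr1:189688067-189688096 (minus) for Cenpf, chr2:69206172-69206201 (minus) for Spc25, chr1:139454767-139454796 (plus) for Aspm, chr15:99651634-99651663 (minus) for Racgap1 and chr7:135716460-135716489 (minus) for Mki67. In 7 of these 8 promoters the printed element begins just after the annotated start, and in Mki67 it lies before it. The members without either CHR form in the window were Ccnb1, Mad2l1, Birc5, Cenpe, Nuf2 and Nusap1. These are matches of letters, not measured binding.

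In unirradiated tumors the 42 genes together took 0.139% of all gene counts in WT cells. Per kilobase of exon, the highest means over the 12 Inputs were those of Incenp, the scaffold of the chromosomal passenger complex, at 23.0 CPM per kb, and Mki67, which encodes the coat protein of mitotic chromosomes and the usual marker of cycling cells, at 20.3 CPM per kb. In WT Ctrl alone the order was the other way, at 31.2 CPM per kb for Mki67 and 27.2 CPM per kb for Incenp. Over the 12 Inputs, Ccnb2, a B-type cyclin, followed at 8.01 CPM per kb, Top2a, the topoisomerase that untangles sister chromatids, at 7.52 CPM per kb and Bub1b, a spindle checkpoint kinase, at 7.34 CPM per kb. The lowest levels were those of Aspm, a spindle pole protein, at 0.972 CPM per kb, and Ttk, the checkpoint kinase MPS1, at 0.460 CPM per kb. Mki67 alone made up 22.6% of the members' summed CPM in WT cells without and 24.2% with irradiation, and 23.1% and 18.8% in cKO cells.

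Summed over the 42 genes, the Input level was 1386, 1387 and 1403 CPM in the 3 WT Ctrl libraries and 548, 535 and 537 CPM in WT IR. In cKO it was 1174, 1163 and 1163 CPM without irradiation and 553, 537 and 539 CPM after it. The WT means were 1392 ± 9.25 (SD) without and 539.9 ± 6.90 with irradiation, and the cKO means 1167 ± 6.40 and 543 ± 8.59 (n = 3 libraries each). Both irradiated groups thus lay below both unirradiated groups with no overlap, at ratios of 0.388 in WT and 0.465 in cKO. The unirradiated cKO sum was 0.838 of the WT sum, while the irradiated sums of both genotypes overlapped, at a ratio of 1.01. These are bulk libraries, in which fewer cells of a type and less RNA per cell cannot be told apart.

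**Figure D1:**
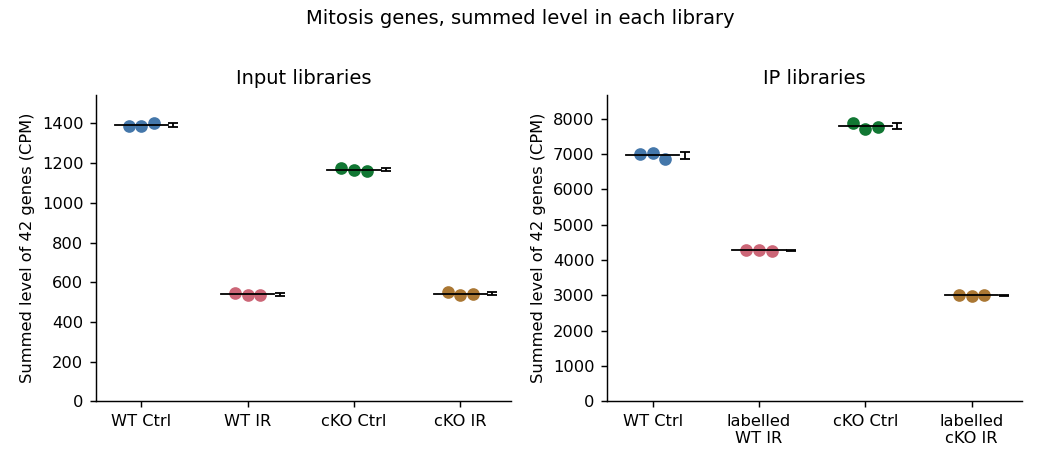
Summed level of the 42 mitosis genes in each library, in CPM, with Input libraries on the left and m6A IP libraries on the right. Points are the 3 libraries of a group, lines their mean and bars the SD. Input means were 1392 CPM without and 539.9 CPM with irradiation in WT, and 1167 and 543 CPM in cKO.

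The first comparison asked what irradiation did to these transcripts in WT cells. All 42 members fell in the WT Inputs (edgeR quasi-likelihood test, adjusted p under 0.05), where 17% of the 16090 genes tested were lower. The libraries of the groups did not overlap for any of the 42, against 20.7% of all genes lower without overlap, and 40 members fell at least 2-fold against 2.86% of all genes. The median log2 fold change over the members was -1.55, beside 0.01 over all genes tested. The range ran from -2.0 for Kif4 to -0.59 for Incenp, and all 42 were also called without WT IR replicate 1.

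Kinesins, the motors that move chromosomes and slide spindle microtubules, fell most as a class, with a median of -1.78 over 8 genes. Kif4, which binds chromosome arms and the anaphase midzone, stood at 14.0, 13.8 and 15.4 CPM in WT Ctrl and at 3.598, 3.32 and 3.89 CPM in WT IR. The change was -2.0 ± 0.09 (SE, log2 scale) with an adjusted p of 5.1e-13. On the opposite strand, 15.1% of its exon bases overlap exons of Pdzd11. The kinases and cyclins had a median of -1.68 over 6 genes. Ccnb2 was at 20.2, 20.2 and 19.5 CPM in WT Ctrl and at 5.12, 4.48 and 6.05 CPM in WT IR, a change of -1.93 ± 0.10 (SE). The library values of every kinase and cyclin were clear of each other between the groups.

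Among the 4 subunits of the chromosomal passenger complex, which corrects faulty spindle attachments, the changes ran from -1.94 to -0.59. Birc5, the survivin subunit, was at 21.9, 21.9 and 21.6 CPM in WT Ctrl and at 5.95, 5.54 and 5.55 CPM in WT IR, a change of -1.94 ± 0.07 (SE, adjusted p = 1.3e-14). Incenp was at 116, 118 and 119 CPM in WT Ctrl and at 90.5, 70.6 and 73.6 CPM in WT IR, a change of -0.59 ± 0.06 (SE, adjusted p = 3.6e-07). The subunit with the highest level per kilobase was therefore the one that fell least. Its highest irradiated value was in WT IR replicate 1, the library that stood apart.

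The remaining classes had medians of -1.24 for the 7 checkpoint and anaphase-promoting complex genes, -1.51 for the 6 centromere and kinetochore genes, -1.51 for the 6 spindle-associated genes, -1.52 for the 3 cytokinesis genes and -1.39 for Top2a and Mki67. Mki67 stood at 313, 313 and 317 CPM in WT Ctrl and at 134, 131 and 127 CPM in WT IR, a change of -1.27 ± 0.03 (SE). Spc25, a subunit of the NDC80 complex that holds microtubules at the kinetochore, was at 10.9, 12.5 and 11.5 CPM in WT Ctrl and at 5.30, 4.45 and 3.89 CPM in WT IR. Racgap1, a subunit of the centralspindlin complex that positions the cleavage furrow, was at 26.5, 29.5 and 28.2 CPM in WT Ctrl and at 9.27, 9.33 and 9.20 CPM in WT IR. Tpx2, which activates Aurora A on the spindle, was at 50.1, 49.3 and 48.8 CPM in WT Ctrl and at 18.2, 17.1 and 17.6 CPM in WT IR. Kif20a, a midzone kinesin, was at 32.9, 36.5 and 35.3 CPM in WT Ctrl and at 12.8, 11.1 and 11.7 CPM in WT IR, with 29.3% of its exon bases overlapped by Cdc23 on the opposite strand. In each of these genes the lowest unirradiated library lay well above the highest irradiated one. The highest adjusted p of the 42 was that of Mad2l1, the checkpoint protein MAD2, at -0.79 ± 0.14 (SE, adjusted p = 0.0002).

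Irradiation also lowered the members in cKO cells, by less for most of them. Of the 42, 41 were lower in cKO IR than in cKO Ctrl, where 23.8% of all genes were lower, and 27 fell at least 2-fold against 2.11% of all genes. The median log2 fold change was -1.18, beside 0.01 over all genes. Libraries did not overlap for 41 members, against 28.6% of all genes lower without overlap. Mad2l1 was the exception, at 13.1, 11.99 and 11.2 CPM in cKO Ctrl and 11.0, 11.7 and 10.4 CPM in cKO IR, a difference of -0.13 ± 0.14 (SE, adjusted p = 0.47).

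The largest falls in cKO were those of Aspm, Cenpf and Cenpe. Aspm was at 15.6, 15.9 and 15.1 CPM in cKO Ctrl and at 4.63, 4.18 and 4.21 CPM in cKO IR, a change of -1.84 ± 0.08 (SE, adjusted p = 6.3e-13). Cenpf, a kinetochore protein that accumulates late in interphase, was at 30.8, 27.2 and 28.5 CPM and then at 9.87, 7.75 and 7.78 CPM, a change of -1.77 ± 0.08 (SE). Cenpe, the kinesin that brings chromosomes to the spindle equator, was at 39.6, 36.9 and 36.4 CPM and then at 11.8, 11.7 and 10.9 CPM, a change of -1.71 ± 0.07 (SE). At the other end, Cdk1, the kinase that drives entry into mitosis, changed by -0.46 ± 0.08 (SE) and Spc25 by -0.55 ± 0.10 (SE). By class, the median was -1.35 for kinesins, -1.06 for kinases and cyclins, -0.79 for the passenger complex and -0.86 for centromere and kinetochore genes, each closer to 0 than in WT.

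**Figure D2:**
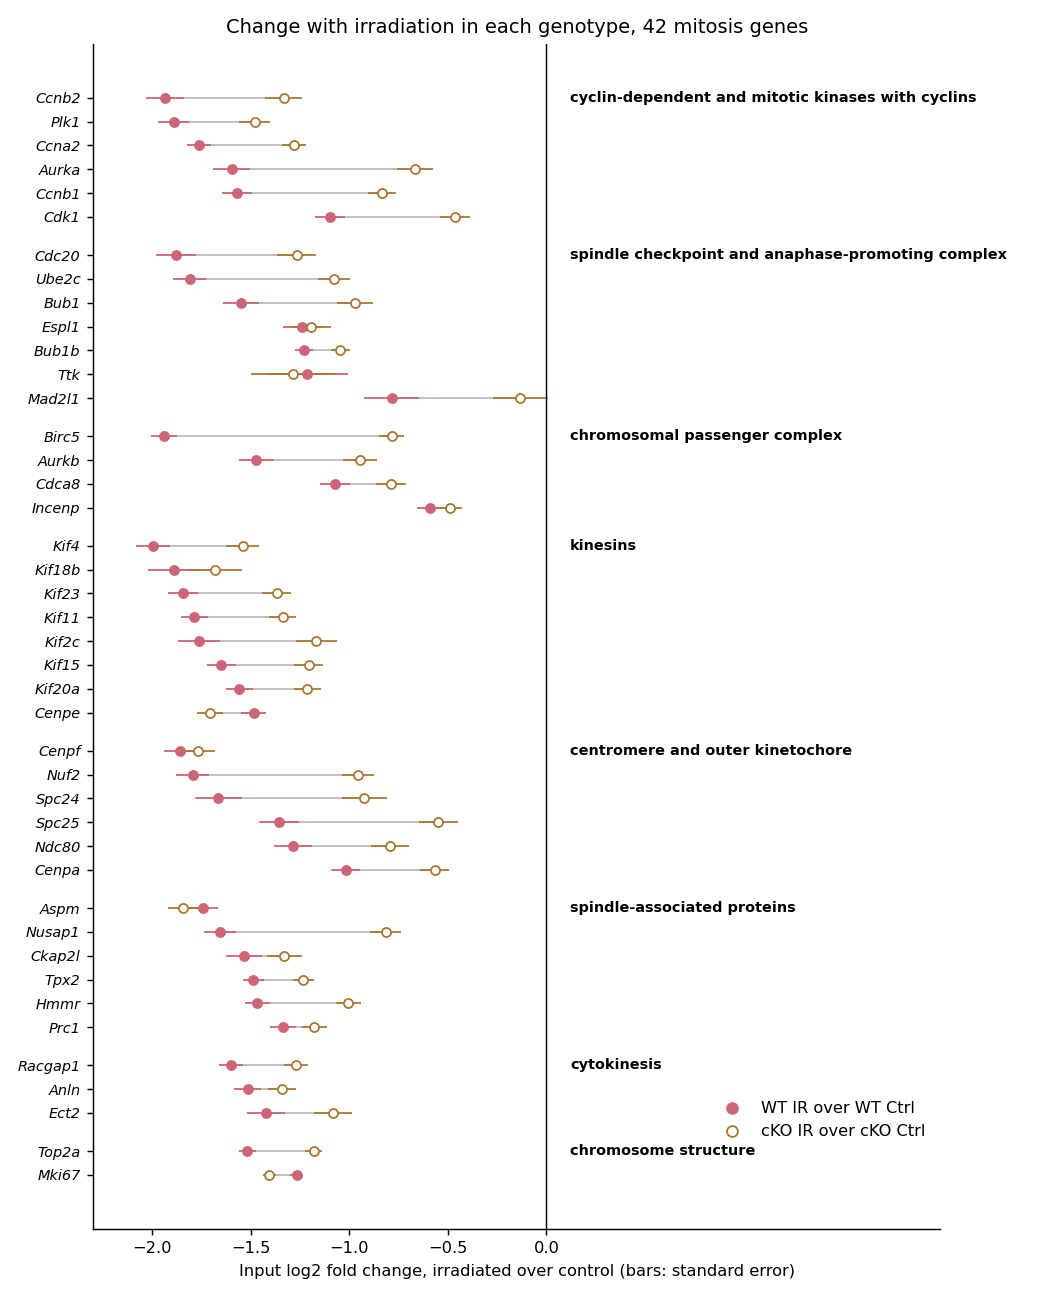
Input log2 fold change with irradiation for each of the 42 genes, by class, with filled points for WT and open points for cKO and bars for the standard error. In WT the values run from -2.0 for Kif4 to -0.59 for Incenp. In cKO they run from -1.84 for Aspm to -0.13 for Mad2l1, and the open point lies to the right of the filled one for 38 of the 42 genes.

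The difference between the irradiation effects of the genotypes was tested as an interaction. It was positive, meaning a smaller fall in cKO, in 29 members, where 15% of all genes were called higher. It was negative in 1 member, Mki67, where 15.2% of all genes were called lower. The median over the members was 0.45, beside -0.0005 over all genes. All 6 kinases and cyclins were called, with a median of 0.62, and so were 5 of 6 centromere and kinetochore genes, with a median of 0.62. Of the kinesins 6 of 8 were called, of the checkpoint genes 5 of 7 and of the spindle-associated genes 3 of 6. The passenger complex gave 2 of 4 and cytokinesis 1 of 3. Without WT IR replicate 1 the interaction was called upward in 31 members and downward in 2. The same contrast is the cKO difference from WT after irradiation less that without irradiation. The medians of these differences were 0.12 and -0.30. By these medians, the smaller fall in cKO came more from a lower unirradiated level than from a higher irradiated one.

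The largest interaction was that of Birc5. Its Input level fell from 21.9, 21.9 and 21.6 to 5.95, 5.54 and 5.55 CPM in WT, and from 18.4, 18.6 and 18.9 to 11.3, 10.2 and 11.0 CPM in cKO. The fall was 3.84-fold in WT and 1.72-fold in cKO, an interaction of 1.15 ± 0.09 (SE, adjusted p = 2e-08). Aurka, which encodes the Aurora A kinase of the spindle poles, fell from 12.1, 11.8 and 11.9 to 4.24, 3.595 and 3.997 CPM in WT, and from 10.5, 9.58 and 8.45 to 6.29, 5.64 and 6.07 CPM in cKO, an interaction of 0.93 ± 0.13 (SE, adjusted p = 1.7e-05). Nusap1, a microtubule-binding protein of the spindle, fell from 18.4, 20.5 and 18.7 to 6.59, 5.84 and 5.86 CPM in WT, and from 15.1, 14.0 and 15.6 to 9.05, 8.49 and 7.78 CPM in cKO, an interaction of 0.84 ± 0.11 (SE). In these genes all irradiated cKO libraries lay above all irradiated WT libraries, as in 26% of all genes. The unirradiated cKO libraries lay below the WT ones, as in 18% of all genes. For Mki67 the order after irradiation was the opposite, at 134, 131 and 127 CPM in WT IR and at 102, 101.3 and 102 CPM in cKO IR, with an interaction of -0.14 ± 0.04 (SE, adjusted p = 0.021). The Mki67 call was lost in 4 of the alternatives tried, with library totals as the only scaling, without the count filter, and without replicate 1 or replicate 2 of the cKO Ctrl Inputs, at adjusted p from 0.0507 to 0.118.

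**Figure D3:**
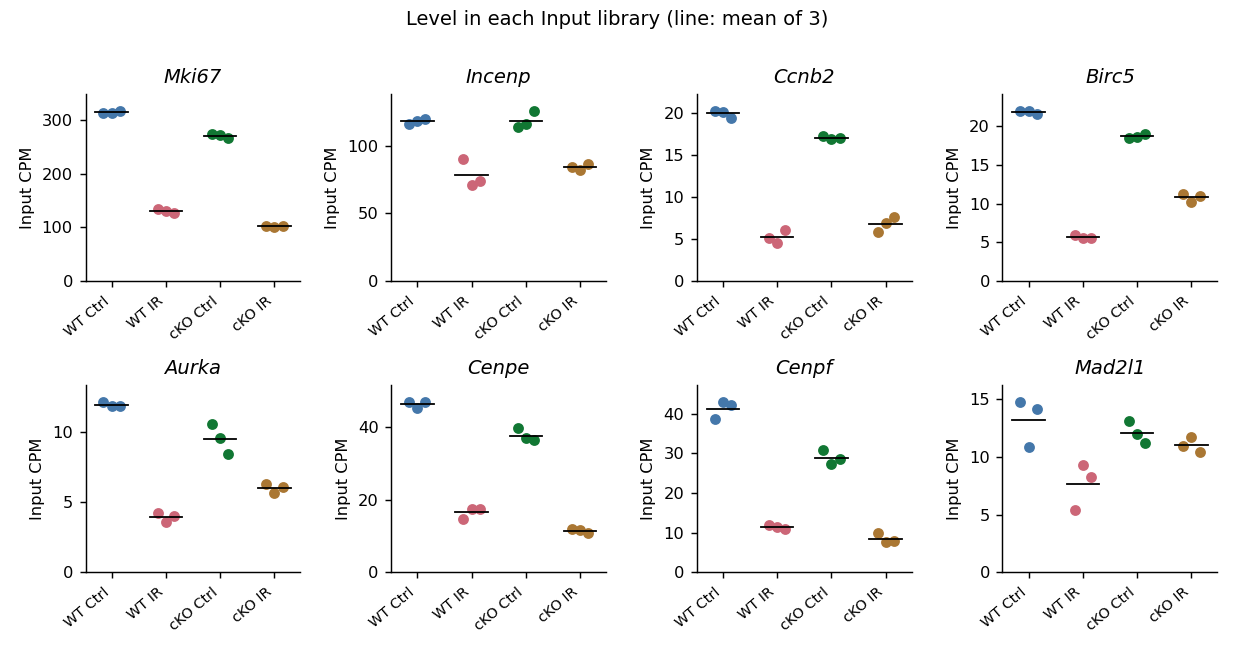
Input level of 8 members in each of the 12 Input libraries, in CPM, with points for libraries and lines for the mean of 3. After irradiation Birc5 and Aurka stand higher in cKO than in WT, Mki67, Cenpe and Cenpf stand lower, and Mad2l1 in cKO IR (10.4 to 11.7 CPM) overlaps its unirradiated values (11.2 to 13.1 CPM).

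Without irradiation, the members were slightly lower in cKO than in WT cells. The comparison called 29 of 42 lower, where 7.61% of all genes were lower, and 0 higher, where 8.05% of all genes were higher. The median was -0.30, and 41 of 42 estimates were below 0. Cenpf had the largest difference, at 38.6, 42.9 and 42.3 CPM in WT Ctrl and 30.8, 27.2 and 28.5 CPM in cKO Ctrl, a change of -0.52 ± 0.07 (SE, adjusted p = 4.1e-05). Kif23, the kinesin partner of Racgap1, was at 24.7, 24.99 and 26.3 CPM and at 18.1, 16.8 and 18.9 CPM, a change of -0.50 ± 0.07 (SE, adjusted p = 2.6e-05). Spc25 was at 10.9, 12.5 and 11.5 CPM and at 8.14, 7.95 and 8.69 CPM, a change of -0.50 ± 0.09 (SE, adjusted p = 0.00085). The values of the genotypes were separate in each of the 3 genes. Libraries did not overlap for 38 members, against 18% of all genes lower without overlap.

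By class, 6 of 8 kinesins, 5 of 6 centromere and kinetochore genes, 5 of 6 spindle-associated genes, 4 of 6 kinases and cyclins, 4 of 7 checkpoint genes, 2 of 3 cytokinesis genes and both chromosome genes were called lower. In the passenger complex only Birc5 was, at -0.22 ± 0.06 (SE, adjusted p = 0.012). That call was lost without cKO Ctrl replicate 1 (adjusted p = 0.052). The calls of Aurka and Cdk1 among the kinases, of Bub1, Cdc20 and Ube2c among the checkpoint genes and of Ndc80 at the kinetochore were also lost when single Ctrl libraries of either genotype were left out, at adjusted p of 0.0506 to 0.196. Incenp, at 114.03, 116 and 126 CPM in cKO Ctrl, differed from WT Ctrl by 0.01 ± 0.06 (SE, adjusted p = 0.96).

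After irradiation, the genotypes differed in both directions. Of the irradiated cKO Inputs against the irradiated WT Inputs, 16 members were higher, where 23.9% of all genes were higher, and 5 were lower, where 23.8% of all genes were lower. The 21 members called in either direction stood beside 47.7% of all genes, so that genes called here were about as frequent among the members as elsewhere. The median over the members was 0.12. Without WT IR replicate 1, 15 were higher and 7 lower.

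The 16 higher members included 5 of the 6 kinases and cyclins and 4 of the 7 checkpoint and anaphase-promoting complex genes. Birc5 was higher by 0.93 ± 0.07 (SE, adjusted p = 6.5e-10) and Aurka by 0.61 ± 0.10 (SE, adjusted p = 3.1e-05), with their library values given above. Spc24, which pairs with Spc25, was at 1.93, 2.14 and 1.96 CPM in WT IR and at 2.82, 2.92 and 3.26 CPM in cKO IR, a difference of 0.58 ± 0.13 (SE, adjusted p = 0.0007). Nuf2, another NDC80 complex subunit, was at 4.35, 5.36 and 4.36 CPM and at 6.61, 6.61 and 6.70 CPM, a difference of 0.50 ± 0.09 (SE). Ube2c, the ubiquitin-conjugating enzyme of the anaphase-promoting complex, was at 8.54, 6.26 and 8.29 CPM and at 10.5, 10.6 and 10.7 CPM, a difference of 0.46 ± 0.09 (SE). The groups did not overlap in any of the 5. Among all 42 members they did not overlap in 23, where 26% of all genes were higher and 26% lower without overlap. The calls for Spc25, Kif4, Bub1, Cdc20 and Plk1 were each lost in at least 3 alternatives.

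The 5 lower members were Cenpe, Cenpf, Aspm, Mki67 and Bub1b. Cenpe was at 14.6, 17.5 and 17.4 CPM in WT IR and at 11.8, 11.7 and 10.9 CPM in cKO IR, a difference of -0.52 ± 0.07 (SE, adjusted p = 2.3e-06). Cenpf was at 11.9, 11.4 and 10.9 CPM and at 9.87, 7.75 and 7.78 CPM, a difference of -0.42 ± 0.09 (SE, adjusted p = 0.00036). Aspm was at 5.12, 6.08 and 6.13 CPM and at 4.63, 4.18 and 4.21 CPM, a difference of -0.41 ± 0.09 (SE, adjusted p = 0.00043), and Mki67 differed by -0.36 ± 0.03 (SE, adjusted p = 1.1e-08). For these genes each cKO IR library lay below every WT IR library, as was the case in 26% of all genes. Bub1b, at 20.4, 20.6 and 20.3 CPM and at 18.3, 19.1 and 18.4 CPM, differed by -0.13 ± 0.05 (SE, adjusted p = 0.025), and this call was lost in 6 of the alternatives (adjusted p up to 0.19). No cytokinesis gene was called. Ect2, the exchange factor that starts the contractile ring, was at 3.58, 4.54 and 3.54 CPM in WT IR and at 4.58, 4.11 and 4.33 CPM in cKO IR, a difference of 0.16 ± 0.10 (SE, adjusted p = 0.23).

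Cenpe, Cenpf, Aspm and Mki67 have the 4 longest coding sequences of the 42 members, from 7413 to 9531 bases, and Birc5 has the shortest but one, at 420 bases. Over the 42 genes, the difference between cKO IR and WT IR correlated with log2 coding length at r = -0.79, and at r = -0.67 over the 38 genes left without the 4 longest. Split at the median mRNA length, the shorter 21 members gave 12 higher and 0 lower with a median of 0.31, and the longer 21 gave 4 higher and 5 lower with a median of 0.03. The correlation with coding length was -0.70 for the change with irradiation in cKO and -0.10 for that in WT. With log2 exon length these changes gave r = -0.23 in cKO and 0.23 in WT over the members. Over all genes they gave -0.17 and 0.03. Over all 16084 genes with a known exon length, the difference between cKO IR and WT IR correlated with log2 exon length at r = -0.18, beside r = -0.62 with exon length over the members. The rank correlations (Spearman's rho) were -0.33 over all genes and -0.63 over the members. All genes here share the same 12 libraries, so these values are a description and not independent evidence. The cause was not tested.

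**Figure D4:**
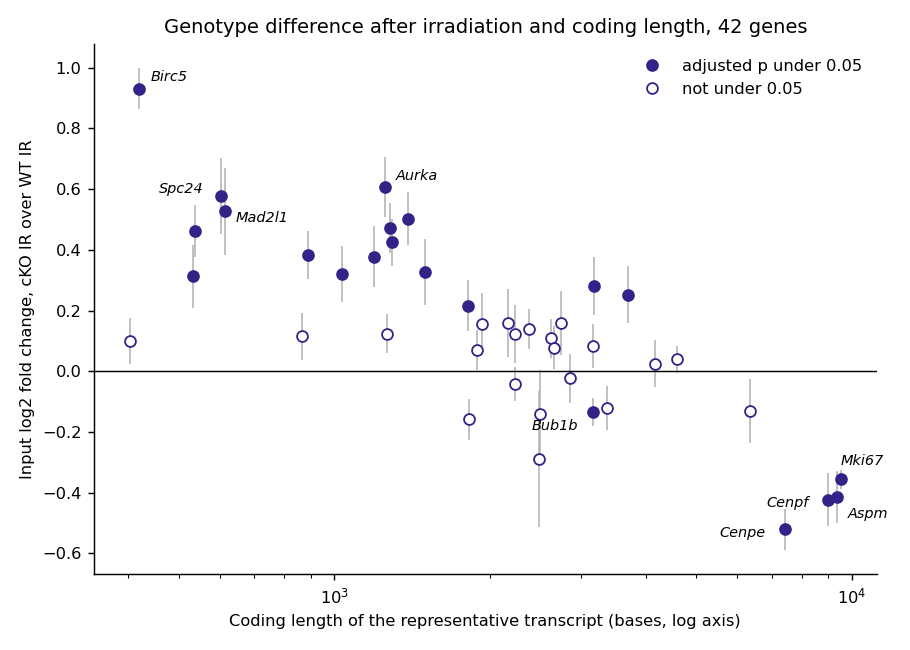
Difference in Input level between cKO IR and WT IR (log2 fold change, bars for the standard error) against the coding length of each gene's representative transcript on a log axis, with filled points for an adjusted p under 0.05. The 4 longest genes, from 7413 to 9531 bases, lie between -0.52 and -0.36, and Birc5, at 420 bases, lies at 0.93.

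Other genes of the cell cycle were compared in the same way. Of all genes, 17% fell and 14.7% rose with irradiation in WT, and 23.8% fell and 21.8% rose in cKO. Of 54 further mitotic genes listed separately, 52 fell with irradiation in WT with a median of -1.37, and 46 fell and 1 rose in cKO with a median of -0.92. Without irradiation 12 were lower and 1 higher in cKO, where 7.61% and 8.05% of all genes were. The largest fall in WT was that of Kif14, a midbody kinesin, at -1.94 ± 0.11 (SE). Between the irradiated genotypes 16 were higher and 6 lower, where 23.9% and 23.8% of all genes were. Calls in either direction were thus no more frequent here than the 47.7% over all genes. Ska1, a kinetochore protein, was at 1.13 ± 0.21 (SE) and Cit, the citron kinase of cytokinesis, at -0.53 ± 0.09 (SE). The interaction was called in 22 upward and in 2 downward, where 15% and 15.2% of all genes were. Of 36 DNA replication genes, 33 fell and 1 rose in WT with a median of -0.76, less than the -1.55 of the 42 members, while 24 fell and 2 rose in cKO. Rrm2, the ribonucleotide reductase subunit made in S phase, changed by -1.46 ± 0.08 (SE) in WT and by -0.95 ± 0.07 (SE) in cKO. 0 replication genes were lower and 1 was higher in cKO without irradiation. Between the irradiated genotypes more replication genes were called higher than lower in cKO. Gins1 was at 0.98 ± 0.17 (SE) and Pole at -0.47 ± 0.10 (SE). The summed level of the 36 genes was 603 to 618 CPM in WT IR and 686 to 695 CPM in cKO IR. The higher irradiated level in cKO was thus not particular to mitosis genes.

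Of 23 regulators of mitotic gene transcription, 13 fell and 3 rose with irradiation in WT, and 14 fell and 4 rose in cKO. The shares of all genes were 17% and 14.7% in WT and 23.8% and 21.8% in cKO. Foxm1, the activator of late cell cycle genes, changed by -1.70 ± 0.09 (SE) in WT and -1.51 ± 0.08 (SE) in cKO. Cdkn1a, which encodes the cyclin-dependent kinase inhibitor p21, rose by 1.19 ± 0.03 (SE) and 1.06 ± 0.03 (SE). The interaction was called in 6 of the 23, with 2 higher and 4 lower, where 15% and 15.2% of all genes were.

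Markers of cell types moved in different directions across the same Inputs. The summed CPM of 8 granulocyte progenitor genes was 87.7 to 97.6 in WT without and 1.93 to 2.55 with irradiation, and 31.4 to 33.6 and 2.82 to 3.03 in cKO, with Elane and Ms4a3 at 0 in all 3 WT IR Inputs. All 8 fell with irradiation in both genotypes, and all 8 were lower in unirradiated cKO than WT cells. The sum of 7 neutrophil genes was 1794 to 1880 CPM in WT without and 453 to 488 CPM with irradiation, and 878 to 883 and 464 to 484 CPM in cKO. That of 5 monocyte genes was 769 to 823, 245 to 306, 630.4 to 666 and 372 to 382 CPM in the same order. The sum of 5 dendritic cell genes was higher after irradiation, at median sums of 45.5 and 72.3 CPM in WT and 41.8 and 58.5 CPM in cKO. Xcr1 and Cd209a, which had counts in WT Ctrl, were at 0 in all 3 WT IR Inputs, so the higher sum there came from the other genes. Xcr1 was also at 0 in all 3 cKO Ctrl Inputs. The sum of 5 endothelial genes was lower, at 3.69 and 1.895 CPM in WT and 2.57 and 1.77 CPM in cKO, and 6 fibroblast genes stayed at medians of at most 0.523 CPM. The 6 macrophage genes moved less, with median sums of 3903, 3734, 4138 and 4082 CPM. The 5 genes of myeloid identity, Itgam and Ptprc among them, had median sums of 3211 to 4247 CPM in the 4 groups, while 7 T cell, 5 NK cell and 4 B cell genes stayed at medians of at most 1.65 CPM. Carcinoma genes had medians of 6.09 to 8.18 CPM with Krt19 and Cldn3 at 0 in every Input, 8 erythroid genes summed to 28.1 to 30.7 CPM in WT IR and to at most 0.187 CPM in the other Inputs, and the mitochondrial share of counts was 4.61 to 4.84% in WT without and 6.13 to 7.25% with irradiation, and 5.34 to 5.51% and 3.39 to 3.75% in cKO. The part of any of these in the results on the mitosis genes was not tested.

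The m6A IP libraries asked how much of each transcript was held by the antibody. Relative to Input, all 42 members were higher in the IP of every group. The share of all genes called higher was 38.1% in WT Ctrl, 37.8% in cKO Ctrl, 37% in labelled WT IR and 36.9% in labelled cKO IR. The median log2 ratio of IP over Input was 1.94, 2.33, 2.61 and 1.95 in that order, and 39, 42, 42 and 37 members stood at least 2-fold higher against 20.3%, 19.8%, 17.8% and 18.4% of all genes. Set against the irradiated Inputs of the other genotype, the medians were 2.43 for labelled WT IR and 2.16 for labelled cKO IR, with all 42 higher in each. Since IP and Input libraries were each scaled to a common total, the ratio ranks genes within a group and is not the share of methylated molecules. The median sum of 8 granulocyte progenitor genes was 94.2 CPM in WT Ctrl and 2.26 CPM in WT IR Inputs. In cKO Inputs it was 32.8 and 3.02 CPM. In IP it was 71.7 CPM in WT Ctrl and 28.5 CPM in labelled WT IR. It was 49.6 CPM in cKO Ctrl IP and 42.8 CPM in labelled cKO IR. Whether irradiated IP and Input libraries held the same mix of cells was not tested.

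Ckap2l, a spindle protein of dividing cells, was the most enriched. Its level in WT Ctrl was 18.3, 17.98 and 18.9 CPM in Input and 266, 257 and 255 CPM in IP, a log2 ratio of 3.61 ± 0.05 (SE). Nuf2 followed, at 17.4, 15.7 and 15.8 CPM in Input and 166, 170.1 and 161 CPM in IP (3.14 ± 0.05), and Spc24, at 5.86, 5.94 and 7.32 CPM in Input and 53.9, 56.0 and 52.2 CPM in IP (2.87 ± 0.07). The least enriched were Ccna2, the cyclin of S phase and early mitosis, at 36.1, 37.8 and 38.9 CPM in Input and 76.7, 75.2 and 81.8 CPM in IP (0.84 ± 0.05), Ube2c, at 27.8, 26.8 and 26.4 CPM and 63.5, 57.1 and 55.7 CPM (0.91 ± 0.07), and Ect2, at 10.8, 9.76 and 10.7 CPM and 23.6, 24.8 and 22.4 CPM (0.97 ± 0.08). Within the group, the highest and lowest members therefore differed by several times their errors, and by class the median ratio ran from 1.33 for checkpoint genes to 2.52 for centromere and kinetochore genes. Of the 54 other mitotic genes, 52 were higher and 1 lower in the WT Ctrl IP, with a median of 2.14.

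**Figure D5:**
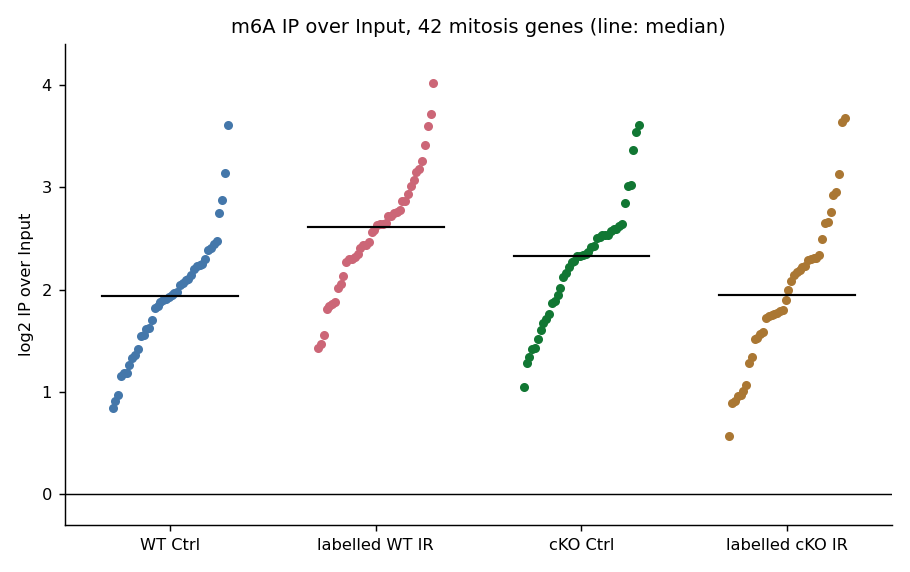
Log2 ratio of m6A IP over Input for each of the 42 genes in the 4 groups, sorted within a group, with lines for the median. All points lie above 0. The medians are 1.94 in WT Ctrl and 2.33 in cKO Ctrl, and 2.61 in labelled WT IR and 1.95 in labelled cKO IR.

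Without irradiation the ratio of IP over Input was higher in cKO than in WT for 31 members, where 10.1% of all genes were higher, and lower for 0, where 12.5% of all genes were lower. The median difference was 0.35. Cenpf had the largest, at 0.62 ± 0.07 (SE, adjusted p = 2.1e-08), followed by Mki67 at 0.60 ± 0.03 (SE, adjusted p = 5.3e-16). In the IP libraries themselves, Mki67 was at 1948, 1939 and 1905 CPM in WT Ctrl and at 2564, 2536 and 2531 CPM in cKO Ctrl, a difference of 0.40 ± 0.02 (SE). Cenpf was at 326, 324 and 311 CPM and at 349.7, 346 and 344 CPM in the IP, a difference of 0.11 ± 0.03 (SE). Its ratio thus differed mostly through its lower Input level in cKO, while Mki67 differed in both kinds of library. Over the members, the IP comparison gave 16 higher and 2 lower, where 16.2% and 17.1% of all genes were, with a median of 0.06. Ckap2l and Incenp, with differences in the ratio of -0.0015 ± 0.07 and -0.13 ± 0.07 (SE), were not called.

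Averaged over the genotypes, the ratio changed unevenly with irradiation. It was higher after irradiation in 22 members, where 25.3% of all genes were higher, and lower in 6, where 23.1% of all genes were lower, with a median of 0.20. The counts were the same without WT IR Input replicate 1. All 8 kinesins were among the 22, from 0.29 ± 0.05 (SE) for Kif15 to 0.73 ± 0.10 (SE) for Kif18b, with Cenpe at 0.69 ± 0.04 (SE). Aspm (0.72 ± 0.06) and Cenpf (0.58 ± 0.05) were also called higher. The 6 lower members were Mad2l1 at -0.70 ± 0.10 (SE), Cenpa, the centromeric histone, at -0.37 ± 0.06, Incenp at -0.29 ± 0.05, Spc24 at -0.20 ± 0.08, Birc5 at -0.19 ± 0.05 and Cdk1 at -0.19 ± 0.06. The difference correlated with log2 coding length at r = 0.76 over the 42 genes. With log2 exon length it was r = 0.32 over the 42 genes and 0.17 over all genes. The irradiated Inputs are shared with the comparison of cKO IR and WT IR above. A different mix of cells in IP and Input could also enter this change, and its part was not tested.

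In the IP libraries alone, all 42 members were lower after irradiation in the average over genotypes, where 29.9% of all genes were lower, with a median of -1.11 and a range from -1.56 for Ccnb2 to -0.78 for Bub1b. The summed IP level was 6955 ± 89.3 (SD) CPM in WT and 7785 ± 82.1 CPM in cKO without irradiation, and 4278 ± 14.1 CPM in labelled WT IR and 3007 ± 15.3 CPM in labelled cKO IR (n = 3 libraries each). Labelled cKO IR was lower than labelled WT IR for 41 members, where 25.7% of all genes were lower, with a median of -0.51, and the libraries of 41 did not overlap, against 29.6% of all genes lower without overlap. Mad2l1 was the one not called, at -0.04 ± 0.05 (SE, adjusted p = 0.58). By Lyz2 these labels stand at the level of the other genotype, so the direction holds for the labels only.

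Peaks called on each IP library and strand placed the enrichment within the transcripts. A consensus peak, shared by all 3 libraries of a group, was found in 39 of the 42 members in WT Ctrl, where 29.5% of 16084 genes had one, in 39 in cKO Ctrl (27.4% of genes), in 39 in labelled WT IR (24.9%) and in 34 in labelled cKO IR (22.2%). In all 4 groups it was 34 members, against 17.1% of genes. Ttk, Ube2c and Ect2 had none in any group, although their IP level was above Input in each. Bub1, Cdc20, Espl1, Kif18b and Cenpa lacked one in labelled cKO IR alone.

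The members carried many peaks each. The number in all was 341 in WT Ctrl and 376 in cKO Ctrl, and 301 in labelled WT IR and 212 in labelled cKO IR. In that order, members with a peak had a median of 8, 8, 7 and 5, where genes with a peak had a median of 2, and 29, 32, 28 and 18 members had at least 5, where 13.2%, 12.5%, 13.2% and 13.5% of genes with a peak did. The genes were not matched for length, exon number or level. Peaks were called on genome positions, so an enriched stretch that spans several exons can count as several peaks. These are therefore not numbers of m6A sites. Cenpe had the most peaks, at 25, 30, 21 and 19, followed in WT Ctrl by Top2a with 20 and Cenpf with 17. Their representative transcripts have 46, 36 and 18 exons. Ckap2l had the highest mean summit enrichment in WT Ctrl, at 23.9-fold, from 8 peaks. Birc5 and Spc24 had 3 peaks in each of the 4 groups.

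Summits were assigned to the parts of each gene's representative transcript. In WT Ctrl, 52.2% of the 341 summits fell in coding exons and 4.69% in 3′ untranslated regions, and 8.21% lay within 200 bases of the stop codon. A further 139 summits fell outside the transcript's exons, but all 139 of these peaks overlapped an exon, with a median distance of 14 bases from summit to exon. The share in coding exons was 48.1% in cKO Ctrl, 51.8% in labelled WT IR and 56.6% in labelled cKO IR. Within 50 bases either side of the summit, GGACT was found in 24 of 341 member peaks (7.04%) and in 11.5% of 12594 peaks of all genes in WT Ctrl, and GGAC in 23.5% and 35.1%. All windows were read from the genome on the transcript strand. Those around the 139 summits outside exons therefore include bases that are not in the representative transcript. The share of such summits among the peaks of all genes was not counted. In the other groups GGACT was in 7.55 to 7.98% of member peaks and in 11.1 to 11.6% of all peaks. The difference was not tested.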

How the data were processed

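Reads were trimmed by the authors with Trimmomatic 0.39, aligned to mm10 with HISAT and counted per gene with HTSeq on GENCODE vM19, and the deposited counts are whole reads per gene for each of the 24 libraries, not normalized. Peaks were called by the authors with MACS2 on each IP library and strand, and the control used is not given in the sources used here. In the deposited peak lists each peak has a score, a fold enrichment at the summit, and a −log10 p and a −log10 q, and the fold enrichment was used here. bedtools 2.26.0 is also listed in the submitters' notes.

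Counts were scaled by TMM and tested with edgeR 4.0.16 (quasi-likelihood F test, R 4.3.3) over the genes that reached 10 counts in 3 or more libraries. The 12 Inputs, the 12 IP libraries and all 24 libraries were fitted separately, p-values were adjusted by Benjamini-Hochberg over all genes tested, and adjusted p under 0.05 was called. Every adjusted p printed is from these fits, or from the alternative named beside it. Fold changes are on the log2 scale, and the pipeline was tested on simulated data. CPM per kb used merged exon length. A consensus peak was a peak of replicate 1 that overlapped peaks on the same strand in both other libraries of its group. Gene positions and transcripts are from GENCODE vM21, which lacks 37 of the 54446 identifiers, and sequences are from RefSeq GRCm38.p6. Python 3.11.15 with pandas 2.3.3, numpy 2.4.6 and matplotlib 3.10.9 and samtools 1.23.1 were used.

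The members and the gene lists were chosen with earlier results of these data known. Genes named with values were the highest member per kb of each class, the 3 largest changes in each of 5 Input comparisons, members called against the sign of the median, and the 3 highest and 3 lowest ratios of IP over Input in WT Ctrl. Mad2l1, Cdk1, Top2a, Kif15, Kif18b, Cenpa, the further Input values of Mki67 and Spc25 and the examples from the other lists were chosen after their values were seen. Alternatives were DESeq2 1.42.0, other scalings and count filters, a fit of the compared libraries alone, a replicate block and leaving out each library.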

Additional observations from a re-analysis of the deposited data

Results flagged for a closer look

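The change with irradiation differed between the genotypes in 30 members by the test of the difference itself (edgeR, adjusted p under 0.05), which is the interaction given in the report. Each value is the log2 change with irradiation in cKO minus that in WT, in Input, so that a positive value is a smaller fall in cKO. Among kinases and cyclins it was 0.93 for Aurka, 0.74 for Ccnb1, 0.64 for Cdk1, 0.60 for Ccnb2, 0.48 for Ccna2 and 0.41 for Plk1. Among checkpoint and anaphase-promoting complex genes it was 0.73 for Ube2c, 0.65 for Mad2l1, 0.61 for Cdc20, 0.58 for Bub1 and 0.19 for Bub1b. The Bub1b call was lost in 7 of the alternatives (adjusted p of 0.0639 to 0.109), and that of Mad2l1 without WT Ctrl replicate 1 (adjusted p = 0.053).

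Of the chromosomal passenger complex, Birc5 was at 1.15 and Aurkb, its kinase, at 0.53. Of the centromere and kinetochore genes, Nuf2 was at 0.84, Spc25 at 0.81, Spc24 at 0.74, Ndc80 at 0.49 and Cenpa at 0.45. The kinesins were at 0.60 for Kif2c, which takes microtubules apart, 0.47 for Kif23, 0.46 for Kif4, 0.45 for Kif11, the motor that separates the spindle poles, 0.44 for Kif15 and 0.34 for Kif20a. Of the spindle-associated genes, Nusap1 was at 0.84, Hmmr at 0.46 and Tpx2 at 0.25. Racgap1 was at 0.33 and Top2a at 0.34. Mki67, at -0.14, was the only one of the 30 with a larger fall in cKO.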

How the results depend on the processing

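All 357 numbers of members called in either direction, or with a peak, that were recomputed under the alternatives stayed within 1.5 times their value in the report, over 18 results. Where all or nearly all members were called or had a peak, the number could not rise that far, so the limit was a weak check there. Within the interaction, the 1 member called downward became 2 with DESeq2 and without WT IR replicate 1. In the 5 Input comparisons, of 3067 values of called members, 2999 kept their direction and call, 68 kept their direction and lost the call, and 0 changed direction. The Input calls lost belonged to 16 pairs of member and comparison, 7 of them for cKO Ctrl against WT Ctrl, 6 for cKO IR against WT IR and 3 for the interaction.

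With one library left out at a time, the number of members called was 23 to 33 for cKO Ctrl against WT Ctrl, 17 to 22 for cKO IR against WT IR and 28 to 33 for the interaction. It was 15 to 19 for the IP libraries of cKO Ctrl against WT Ctrl, with 13 to 24 under the other alternatives, 40 to 41 for labelled cKO IR against labelled WT IR, with 39 to 41, and 28 to 34 for IP over Input of cKO Ctrl against WT Ctrl, with 30 to 34. Lost calls were not listed by member for the IP comparisons. The count for cKO IR against WT IR was 15 when only its 6 libraries were fitted and 23 with library totals as the only scaling. A block for the replicate number gave 20 members there, 28 for cKO Ctrl against WT Ctrl and 31 for the interaction, and left the number of members called in the other comparisons the same. Same-numbered Input libraries of different groups did not deviate together, with correlations of -0.169 to 0.0938 and 0 of 18 over 0.1. Differently numbered ones gave -0.158 to 0.207, and same-numbered Input and IP libraries gave -0.228 to 0.0797. No pairing by number was seen, but such values cannot exclude a pairing in the design. The block lost the calls of Cdc20 (cKO Ctrl against WT Ctrl, adjusted p = 0.0519) and Plk1 (cKO IR against WT IR, adjusted p = 0.0541).

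Members with a consensus peak ranged from 37 to 40 in WT Ctrl, cKO Ctrl and labelled WT IR, and from 33 to 35 in labelled cKO IR. Replicates may be technical, depth limits Ttk most, and the conflict of Lyz2 with the labels limits every comparison of the irradiated IP libraries by genotype.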

Other observations

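The 6 members whose promoter window held no CHR letters (Ccnb1, Mad2l1, Birc5, Cenpe, Nuf2 and Nusap1) and the 30 that held them were set side by side after the values had been seen. The median change with irradiation in WT was -1.61 in the 6 and -1.54 in the 30. In cKO it was -0.825 and -1.20. The median interaction was 0.79 in the 6, from -0.22 for Cenpe to 1.15 for Birc5, and 0.43 in the 30, from -0.14 for Mki67 to 0.93 for Aurka. The ranges overlap, and the difference was not tested.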
